A study of Mus musculus with 10 samples.

Results

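The Hox cluster genes were taken as the rows of the expression table whose symbol is Hox followed by a cluster letter (a to d) and a number, and 39 of the 20325 genes listed met this rule. They fall into the Hoxa cluster on chromosome 6 (11 genes), the Hoxb cluster on chromosome 11 (10 genes), the Hoxc cluster on chromosome 15 (9 genes) and the Hoxd cluster on chromosome 2 (9 genes). RNA-Seq of polyA RNA was available for 5 lines of mouse embryonic stem cells (mESCs), with 2 biological replicates each. Daxx-/- mESCs, of strain 129/SvEv, lack DAXX, a histone chaperone that binds the variant histone H3.3, and Daxx-/-;WT (the DAXX-rescued line) is the same line with a FLAG-tagged mouse DAXX transgene. H3.3 KO mESCs, of strain 129 x C57BL/6J, are labelled as a knockout of H3.3, and H3.3 KO;WT (the H3.3-rescued line) carries a FLAG-HA-tagged WT H3.3 transgene. The mutant line, H3.3 KO;L126A-L130A, carries a FLAG-HA-tagged H3.3 mutant that, by the study's account, binds DAXX but cannot be stably deposited in chromatin. The labels give leucine as the second residue replaced, whereas the study's text names isoleucine. All transgenes were delivered by lentivirus from an EF1 vector and selected with puromycin, and all cells grew without feeders on gelatin in LIF with 3 μM CHIR99021 and 1 μM PD0325901. Each KO background is 1 line, no wild-type line was included, and the backgrounds differ in strain as well as in the gene removed.

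Hox genes encode homeodomain transcription factors that set position along the body axis of the embryo. Within a cluster the genes lie in the order in which they are switched on in time and along the axis, from the low-numbered 3′ genes, which pattern the hindbrain, to the high-numbered 5′ genes of the trunk, limbs and tail. In embryonic stem cells the clusters are held silent by Polycomb group proteins, with active and repressive histone marks on the same promoters. Retinoic acid, Wnt signals and Cdx factors switch them on, trithorax group proteins maintain them, and the Hox proteins bind DNA together with TALE homeodomain cofactors of the Pbx, Meis and Pknox families.

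The libraries held between 15463625 and 21396585 expected counts, so that 3 counts correspond to between 0.14 and 0.194 CPM, where CPM is the count divided by the total of its library and multiplied by 1000000. Summed pluripotency markers lay between 5500 and 7970 CPM in every library, with 9 of the 10 symbols in the table. H3f3a, 1 of the H3.3 genes, was at 390 to 498 CPM in the Daxx lines and at 2.95 to 11.4 CPM in the H3.3 lines, whereas H3f3b, the other H3.3 gene, was at 525 and 749 CPM in H3.3 KO, above every other library (85.1 to 388 CPM), so that its RNA in the table does not show its loss. Daxx was at 77.3 and 74.4 CPM in Daxx-/-, at 195 and 208 CPM in the DAXX-rescued line and at 61.5 to 96.7 CPM in the H3.3 lines, so the RNA of Daxx-/- mESCs was not below that of the H3.3 lines.

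Hox RNA was scarce in all 5 lines. The median Hox gene averaged 0.215 CPM, against 5.57 CPM over all genes listed, and all 39 genes together reached 18.4 to 64.0 CPM per library. Hoxb5 had no count in any library, which allows up to 3 counts per library. A count in all 10 libraries was found for 18 genes and at least 10 counts in all of them for 6, while 17 genes stayed under 10 counts throughout. The 5 highest genes held 62.3% of all Hox CPM. In bulk RNA, a few cells with much Hox RNA and many cells with little cannot be told apart.

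Compared per kilobase of exon, so that genes of different length can be ranked, the highest mean levels over the 10 libraries were those of Hoxc13 (3.97 CPM per kb), Hoxc4 (1.52), Hoxd13 (1.34) and Hoxb9 (1.23 CPM per kb), among the genes described here. The order differed between lines. Hoxc13 led in each, but Hoxc4 was at 2.59 and 2.37 CPM per kb in the Daxx-/- and DAXX-rescued lines and at 0.692 in H3.3 KO, below Hoxd13 (1.48), Hoxb4 (1.23), Hoxd9 (1.08) and Hoxb9 (0.915 CPM per kb) in that line. In the mean over all libraries, Hoxd9 (0.952), Hoxc12 (0.9), Hoxb4 (0.555), Hoxd8 (0.414) and Hoxd1 (0.384 CPM per kb) followed. Hoxc4 lies at the 3′ end of its cluster and Hoxc13 and Hoxd13 at the 5′ end, so that in the Hoxc and Hoxd clusters the genes with the highest mean over all libraries were terminal ones. That of the Hoxb cluster, Hoxb9, was internal, although in H3.3 KO the mean of Hoxb4 was higher, through replicate 2. Other members were close to the counting limit, such as Hoxa2 (at most 0.194 CPM), Hoxa6 (at most 0.0646 CPM), Hoxb6 (at most 0.0585 CPM) and Hoxd12 (at most 0.113 CPM). Of the 39 genes, 14 share exon sequence with another annotated gene, 7 of them on the same strand and 9 on the opposite strand. Among the genes tested these included Hoxc10, which overlaps a Hoxc5 transcript, and Hoxd4, which overlaps Gm28230. The library kit does not mark strand, and strand could not separate genes that overlap on the same strand. The reads of such pairs may therefore be divided between genes, and their values are less certain.

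**Figure D1:**
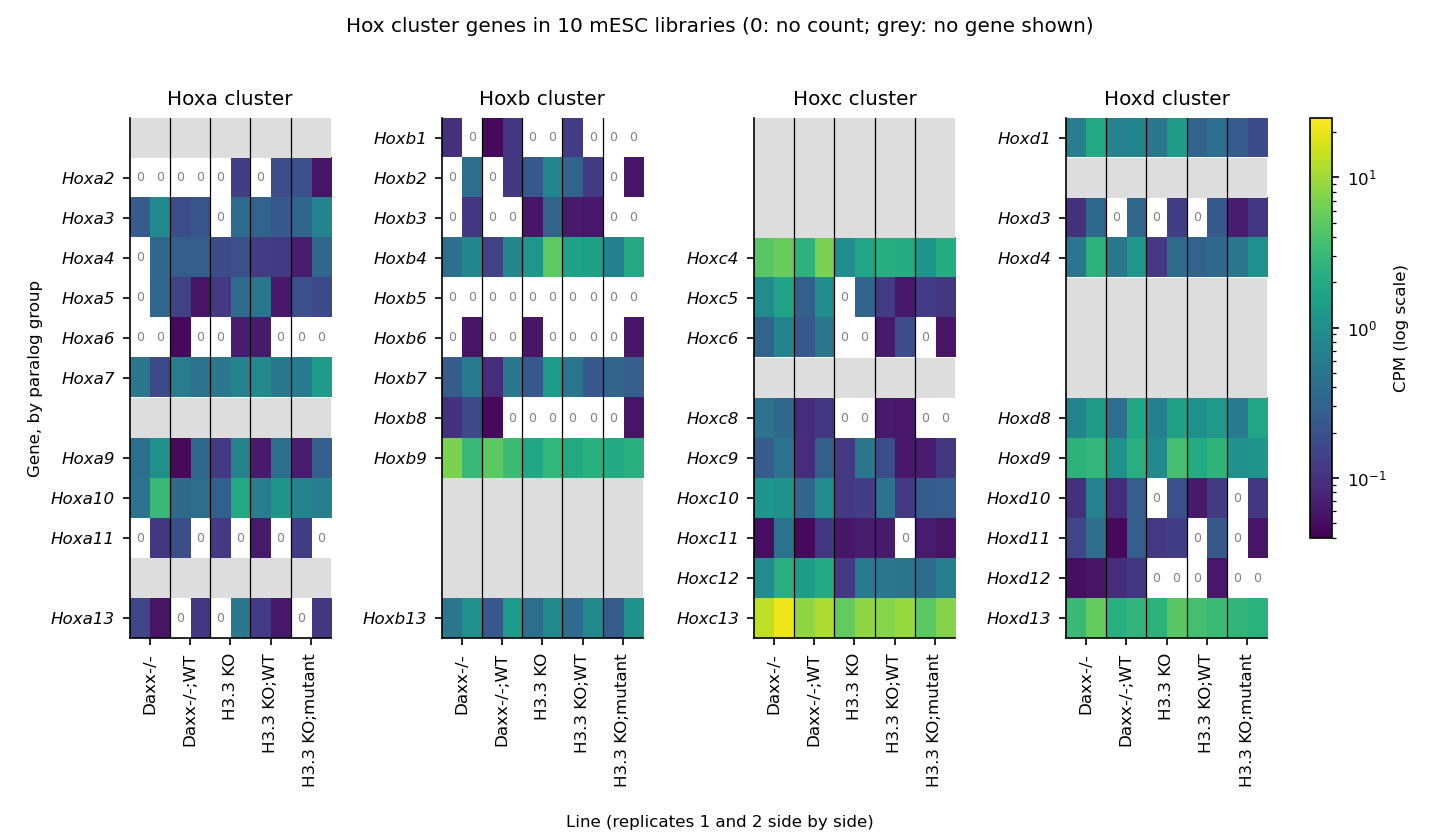
CPM of 38 of the 39 Hox genes (colour, log scale) in the 10 libraries, with 1 panel per cluster, genes from paralog group 1 at the top to 13 at the bottom and the 2 replicates of each line side by side. A 0 marks no count and grey a paralog group with no gene shown. Hoxc13, at 4.91 to 21.3 CPM, is the brightest gene, and most internal genes stay under 1 CPM.

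At least 1 CPM in at least 2 libraries was reached by 14 of the 39 genes, and these were tested. They included Hoxa10, then Hoxb4, Hoxb9 and Hoxb13, then Hoxc4, Hoxc10, Hoxc12 and Hoxc13, and in the Hoxd cluster Hoxd1, Hoxd4, Hoxd8, Hoxd9 and Hoxd13. The 25 genes left out reached at most 1.7 CPM, which was 30 counts of Hoxc5 in replicate 2 of Daxx-/-. The filter passes a gene that is high in 1 line alone, so the tested genes do not stand for the whole set.

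The Hoxc cluster contained the member with the highest mean CPM, Hoxc13. Hoxc13, a 5′ gene known for its role in hair and nail formation, was measured at 13.4 and 21.3 CPM in Daxx-/-, 8.6 and 11.2 in the DAXX-rescued line, 5.32 and 8.52 in H3.3 KO, 7.73 and 9.33 in the H3.3-rescued line, and 4.91 and 7.49 CPM in the mutant line. The Daxx-/- libraries lay above all others, and only replicate 1 of the DAXX-rescued line fell within the range of the H3.3 lines. Hoxc4, the 3′ gene of the cluster, was at 4.72 and 5.55 CPM in Daxx-/-, 2.57 and 6.85 in the DAXX-rescued line, 0.935 and 1.81 in H3.3 KO, 2.2 and 2.17 in the H3.3-rescued line, and 1.16 and 2.16 CPM in the mutant line. Every library of the Daxx lines exceeded every library of the H3.3 lines. Hoxc12 gave 0.882 and 2.26 CPM in Daxx-/-, 1.4 and 2.04 in the DAXX-rescued line, 0.117 and 0.581 in H3.3 KO, 0.503 and 0.481 in the H3.3-rescued line, and 0.388 and 0.624 CPM in the mutant line, again without overlap between the backgrounds. Hoxc10, which takes part in patterning the lumbar region and hindlimb, had 1.19 and 1.08 CPM in Daxx-/-, 0.327 and 0.906 in the DAXX-rescued line, 0.117 and 0.129 in H3.3 KO, 0.44 and 0.12 in the H3.3-rescued line, and 0.259 and 0.284 CPM in the mutant line. The H3.3 KO values rest on 2 counts per library, and the DAXX-rescued line and the H3.3-rescued line overlapped.

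In the Hoxb cluster, Hoxb9, which helps to pattern the thoracic skeleton, was at 6.95 and 3 CPM in Daxx-/-, 4.91 and 3.28 in the DAXX-rescued line, 1.87 and 2.84 in H3.3 KO, 2.01 and 2.41 in the H3.3-rescued line, and 2 and 2.27 CPM in the mutant line. All Daxx-line libraries were above all H3.3-line libraries, by little in replicate 2 of Daxx-/-. Hoxb4, known for expanding blood progenitors when supplied in excess, was at 0.415 and 0.793 CPM in Daxx-/-, 0.14 and 0.792 in the DAXX-rescued line, 1.23 and 5.1 in H3.3 KO, 1.63 and 1.56 in the H3.3-rescued line, and 0.647 and 1.93 CPM in the mutant line. Its highest value, in replicate 2 of H3.3 KO, was far from the other replicate, and the backgrounds overlapped only through replicate 1 of the mutant line. Hoxb13, a 5′ gene of the tail and prostate, ranged from 0.234 to 1.42 CPM and differed more between replicates than between lines.

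In the Hoxa cluster, Hoxa10, a gene of the reproductive tract and lumbar spine, was at 0.467 and 3.17 CPM in Daxx-/-, 0.374 and 0.396 in the DAXX-rescued line, 0.292 and 2 in H3.3 KO, 0.629 and 1.2 in the H3.3-rescued line, and 0.711 and 0.624 CPM in the mutant line. Only replicate 2 of each KO line was well above 1 CPM, and the replicates of both KO lines lay further apart than any of the other lines did from each other.

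The Hoxd cluster showed the same spread between replicates. Hoxd13, a limb and digit gene, was at 3.06 and 5.44 CPM in Daxx-/-, 2.34 and 2.77 in the DAXX-rescued line, 2.51 and 4.84 in H3.3 KO, 3.77 and 3.25 in the H3.3-rescued line, and 2.78 and 2.44 CPM in the mutant line. Hoxd9 was at 2.54 and 2.83 CPM in Daxx-/-, 1.07 and 2.26 in the DAXX-rescued line, 0.877 and 3.74 in H3.3 KO, 2.08 and 2.71 in the H3.3-rescued line, and 1.03 and 1.19 CPM in the mutant line. Both genes overlapped between the backgrounds. Hoxd1 was at 0.623 and 1.98 CPM in Daxx-/-, 0.701 and 0.736 in the DAXX-rescued line, 0.526 and 1.42 in H3.3 KO, 0.314 and 0.421 in the H3.3-rescued line, and 0.259 and 0.17 CPM in the mutant line. It was lowest in the H3.3 KO lines with a transgene. Hoxd4 was at 0.519 and 2.43 CPM in Daxx-/-, 0.514 and 1.25 in the DAXX-rescued line, 0.117 and 0.387 in H3.3 KO, 0.314 and 0.361 in the H3.3-rescued line, and 0.517 and 1.02 CPM in the mutant line. Hoxd8 was at 0.726 and 1.42 CPM in Daxx-/-, 0.421 and 1.92 in the DAXX-rescued line, 0.643 and 1.61 in H3.3 KO, 1.01 and 1.26 in the H3.3-rescued line, and 0.582 and 1.76 CPM in the mutant line, with replicate 2 the higher library in each line.

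**Figure D2:**
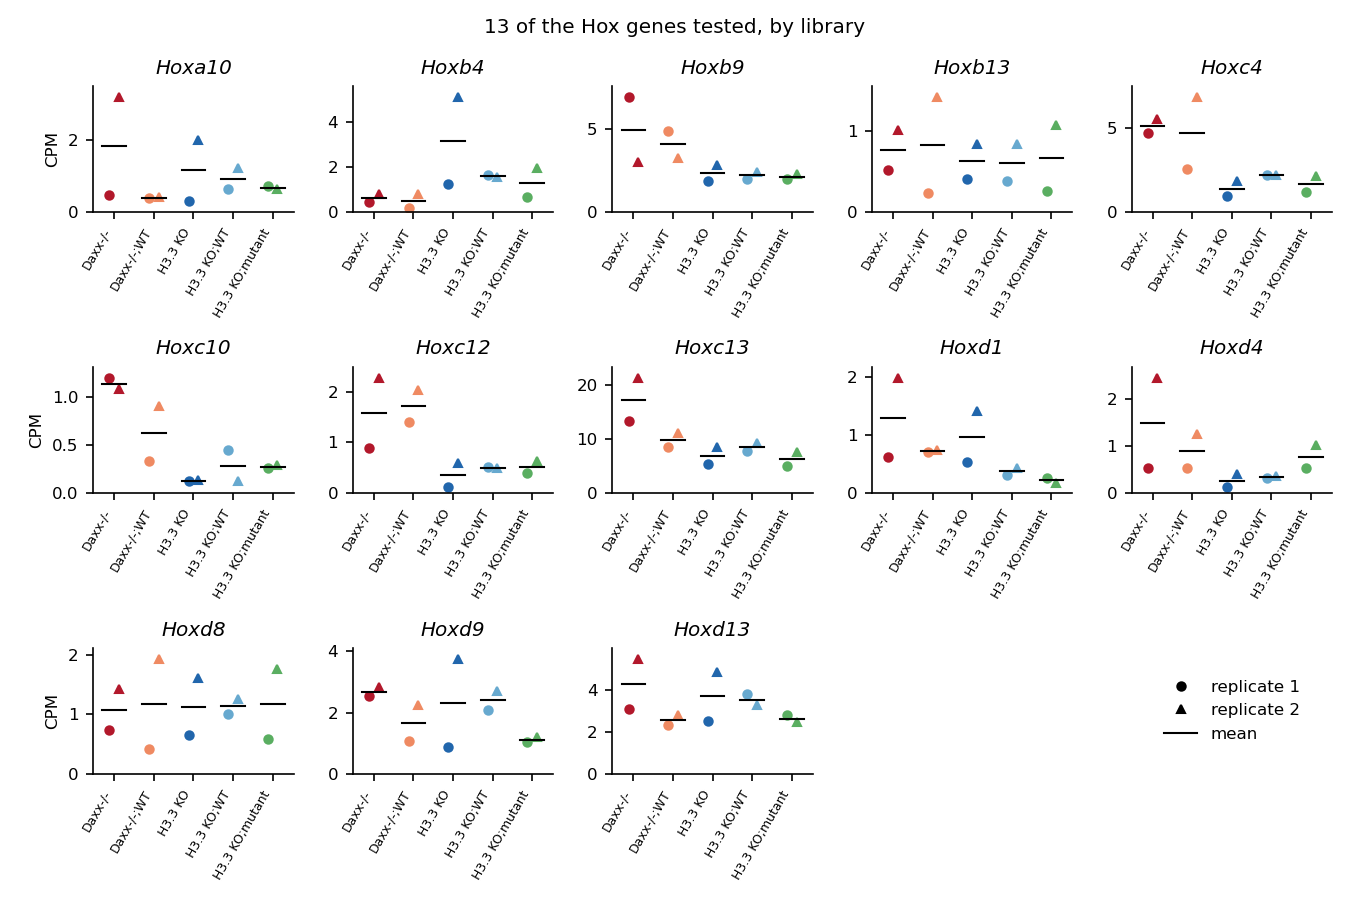
CPM of 13 of the 14 Hox genes tested in each library, with 1 panel and 1 linear scale per gene, circles for replicate 1, triangles for replicate 2 and a line at the mean of the 2. Hoxc4, Hoxc12 and Hoxb9 do not overlap between the 4 libraries of the Daxx lines and the 6 of the H3.3 lines, whereas Hoxd8 and Hoxb13 differ mainly between replicates.

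Promoter sequence is shown for 3 members, Hoxc4 because it differed between the backgrounds, Hoxb4 because its fitted difference had the opposite sign, and Hoxd13 because it was a leading gene whose backgrounds overlapped. The sequences are those of RefSeq on GRCm38.p6, matched by symbol, and run from 250 bases before to 50 bases after the start of the gene. They lie on the plus strand at chr15:103034145-103034444 (Hoxc4), chr11:96318017-96318316 (Hoxb4) and chr2:74667975-74668274 (Hoxd13). Capitals mark each match to GGGCGG, the core of the GC box, to TATAAA, the TATA box, or to TTTATG, the core of a site that Cdx factors and 5′ Hox proteins bind, on either strand and with overlapping matches merged.
Hoxc4: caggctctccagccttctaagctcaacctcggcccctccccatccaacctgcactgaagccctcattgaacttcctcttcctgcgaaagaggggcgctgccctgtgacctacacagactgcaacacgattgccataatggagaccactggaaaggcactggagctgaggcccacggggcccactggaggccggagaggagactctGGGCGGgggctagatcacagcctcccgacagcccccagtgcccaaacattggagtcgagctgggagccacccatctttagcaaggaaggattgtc
Hoxb4: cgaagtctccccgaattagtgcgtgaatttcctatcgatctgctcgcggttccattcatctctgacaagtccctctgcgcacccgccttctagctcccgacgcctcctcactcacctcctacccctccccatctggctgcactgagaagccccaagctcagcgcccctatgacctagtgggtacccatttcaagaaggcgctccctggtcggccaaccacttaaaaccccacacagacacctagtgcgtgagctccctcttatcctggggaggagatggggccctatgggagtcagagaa
Hoxd13: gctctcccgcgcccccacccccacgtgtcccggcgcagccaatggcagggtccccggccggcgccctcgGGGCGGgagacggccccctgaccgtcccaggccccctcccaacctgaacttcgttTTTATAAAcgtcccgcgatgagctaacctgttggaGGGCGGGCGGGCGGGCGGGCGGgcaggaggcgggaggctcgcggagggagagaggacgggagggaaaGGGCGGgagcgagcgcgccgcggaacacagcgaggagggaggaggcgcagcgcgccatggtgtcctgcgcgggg

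Of these 3 windows, that of Hoxd13 was the richest in G and C (74.3%) and held 37 CpG dinucleotides, an observed-to-expected ratio of 0.904, with 7 matches to GGGCGG and 2 to TATAAA, 1 on each strand of the same run. The Hoxc4 window had 60.3% G and C, 9 CpG dinucleotides (ratio 0.333) and 1 match to GGGCGG. The Hoxb4 window had 58.0% G and C, 14 CpG dinucleotides (ratio 0.593) and no match to these letters. Over the 24 promoter entries that matched 22 Hox genes, the median CpG ratio was 0.626 and the median G and C content 57.7%, compared with 0.384 and 52.7% over all 32851 promoters. GGGCGG was found in 10 of the 24 Hox entries (35.7% of all promoters), TATAAA in 4 (13.6% of all) and TTTATG in 5 (11.9% of all).

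The first comparison asks what restoring DAXX does to Hox RNA in Daxx-/- mESCs. No Hox gene was DE, with adjusted p-values from edgeR's quasi-likelihood test between 0.192 and 0.97 for the 14 tested, where a DE gene has a p under 0.05 after Benjamini-Hochberg adjustment and differs at least 2-fold. Of all 13201 genes tested, 1.08% were DE in this comparison. The count was also 0 with DESeq2, with limma and, over 38 Hox genes, without the filter on low values (1.33% of all genes then). At an unadjusted p under 0.05 there was 1 gene, Hoxc13, against 21.8% of all genes tested. Hoxc13 was 0.80 lower on the log2 scale with DAXX (log2 fold change -0.80, SE 0.32, 95% interval -1.52 to -0.08, edgeR adjusted p 0.192), with both libraries of the DAXX-rescued line below both Daxx-/- libraries. The fitted log2 fold change was negative for 10 of the 14 genes, and its median was -0.55, compared with -0.02 over all genes tested. Hoxa10 had the lowest value, -2.17, with an interval from -4.46 to 0.12, since only replicate 2 of Daxx-/- was high.

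Adding WT H3.3 back to H3.3 KO mESCs left no Hox gene DE by edgeR (adjusted p-values 0.498 to 0.999), where 0.250% of all genes tested were DE. DESeq2, limma and the fit without a filter (0.301% of all genes) likewise gave 0, and at an unadjusted p under 0.05 there was no Hox gene, compared with 13.3% of all genes. The median log2 fold change of the 14 genes was 0.07 (0.02 over all genes). Hoxc10 (1.17, interval -0.98 to 3.32) and Hoxd1 (-1.34, interval -3.04 to 0.36) were at the extremes. The interval of Hoxd13, -0.98 to 0.92, was the only one of the 14 that lay within a 2-fold change in either direction. A test of the difference between the effect of the DAXX transgene and that of the WT H3.3 transgene called no Hox gene (0.0455% of all genes). At an unadjusted p under 0.05 it gave 1 Hox gene, Hoxc13 (difference of log2 fold changes -1.13, interval -2.16 to -0.11, edgeR adjusted p 0.319), compared with 13.9% of all genes. This difference was fitted with edgeR alone.

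The L126A-L130A mutant was compared with its H3.3 KO parent and with WT H3.3. Against H3.3 KO, 0 Hox genes were DE by edgeR (adjusted p-values 0.234 to 0.965) compared with 0.788% of all genes, and DESeq2, limma and the unfiltered fit (1.15% of all genes) gave 0 as well. At an unadjusted p under 0.05 there was 1 Hox gene, Hoxd1, among 16.9% of all genes. Hoxd1 was lower in the mutant line (log2 fold change -2.09, SE 0.81, interval -3.91 to -0.27, edgeR adjusted p 0.234), and both mutant libraries were below both H3.3 KO libraries. The mutant values rest on 4 and 3 counts. Of the libraries compared, only replicate 2 of H3.3 KO (1.42 CPM) helped Hoxd1 to pass the filter. That is the line in which it was high, so its value gives no support here. Hoxd4 had the highest fitted value, 1.65, with an interval from -0.46 to 3.76, and that of Hoxc13 (-0.84 to 0.63) was the only one within 2-fold. The medians were 0.01 for the 14 genes and 0.03 for all genes. Against WT H3.3, no Hox gene was DE by edgeR (adjusted p-values 0.584 to 0.998) compared with 0.515% of all genes, with 0 again from DESeq2, limma and the unfiltered fit (0.711% of all genes). None had an unadjusted p under 0.05, compared with 12.3% of all genes. Here 10 of 14 fitted values were negative, with a median of -0.29 (0.00 over all genes). Hoxd9 (-1.07, interval -2.54 to 0.39) and Hoxd4 (1.19, interval -0.84 to 3.22) were the extremes. The WT and mutant comparisons share the H3.3 KO libraries, so their values are not independent.

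The intervals show what 2 libraries per line can resolve at these counts. In the 4 comparisons the narrowest interval, that of Hoxc13, extended 0.72 to 0.74 on the log2 scale to each side, and the widest, of Hoxa10 or Hoxd4, extended 2.25 to 2.29. An interval wholly within 2-fold was reached by no more than 1 Hox gene in any of them, so that 2-fold changes of the others may have gone undetected at this depth.

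**Figure D3:**
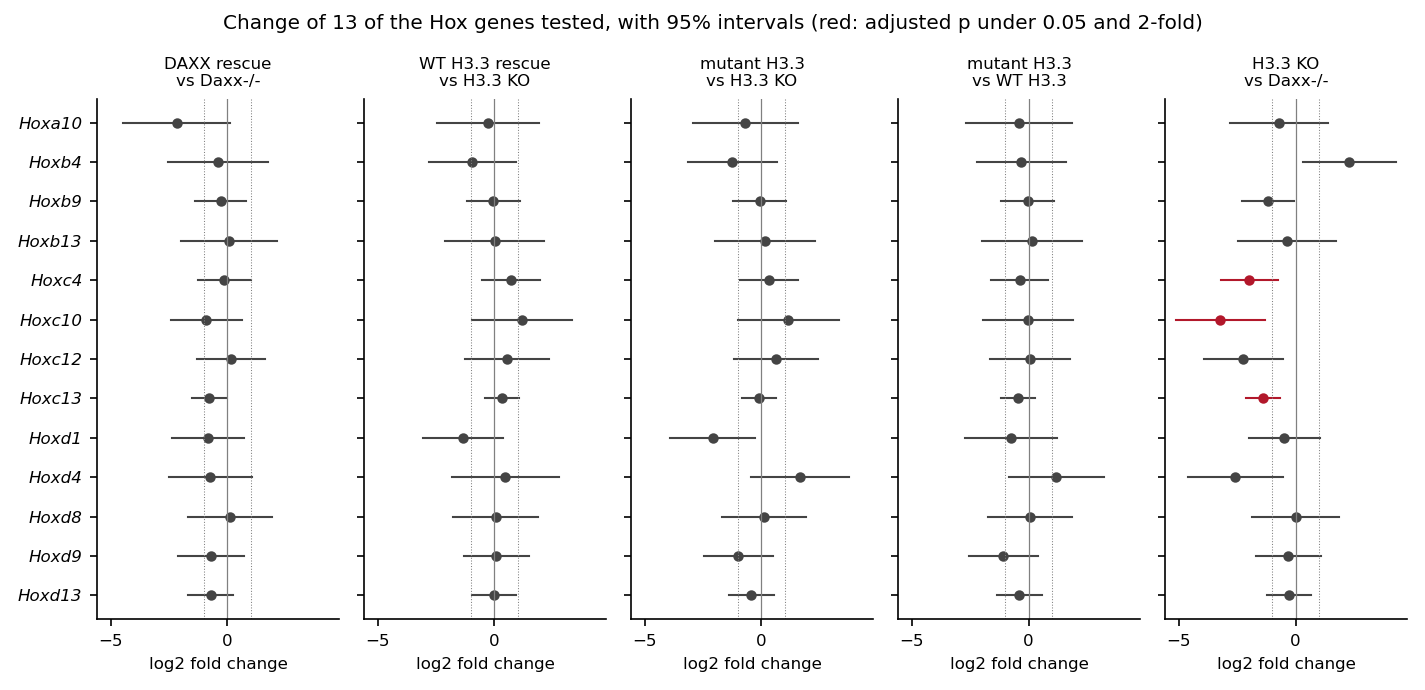
Log2 fold change (points) with 95% interval (lines) of 13 of the 14 Hox genes tested, with 1 panel per comparison and dotted lines at 2-fold. Intervals cross 0 for all but 1 gene at most in each of the 4 comparisons within a background, and Hoxc4, Hoxc10 and Hoxc13 (red) are DE between the 2 KO lines.

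The KO lines were also set against each other. This is not a comparison of the study: strain, origin and the gene removed cannot be told apart in it. In H3.3 KO, 3 of the 14 Hox genes were DE relative to Daxx-/-, all lower and all of the Hoxc cluster, where 11.7% of all genes tested were DE and 5.98% were DE and lower. Hoxc13 was lower by 1.40 on the log2 scale (log2 fold change -1.40, SE 0.33, 95% interval -2.13 to -0.66, edgeR adjusted p 0.0166). Hoxc4 had a log2 fold change of -1.99 (SE 0.54, interval -3.20 to -0.77, adjusted p 0.0291). For both genes the 2 H3.3 KO libraries were below the 2 Daxx-/- libraries. Hoxc10 had a log2 fold change of -3.22 (SE 0.84, interval -5.11 to -1.33, adjusted p 0.0251) and rests on 4 counts in H3.3 KO and 42 in Daxx-/-, a ratio of 9.27 with a counting interval from 3.36 to 35.6. It passed the filter on low values through the 2 Daxx-/- libraries alone, the group in which it is high, so its call gives no support to the count of 3. None of the 3 calls was kept in every fit that left out a KO-line library. Such a fit leaves 1 library in that line, and the reason for the losses was not tested. Over all alternative fits the log2 fold change ranged from -1.76 to -1.10 for Hoxc13 and from -2.52 to -1.45 for Hoxc4. For Hoxc10 it ranged from -3.30 to -0.95. The call of Hoxc4 was also lost when either library of the H3.3-rescued line was left out. The 4 libraries fitted alone gave 0.

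At an unadjusted p under 0.05 there were 7 of 14 Hox genes (38.0% of all genes tested). The 4 that were not DE were Hoxc12 (log2 fold change -2.23, edgeR adjusted p 0.0573), Hoxd4 (-2.58, 0.0676), Hoxb9 (-1.19, 0.111) and, with the opposite sign, Hoxb4 (2.30, 0.0897). Of the 7, Hoxc10 and Hoxc12 had passed the filter only through Daxx-line libraries, and Hoxb4 only through H3.3-line libraries. Each was high in those lines, so they give no support to the counts here. DESeq2 called the same 3 Hoxc genes, limma on log2(CPM + 1) called Hoxc4 and Hoxc13, and limma on log2(CPM + 0.1) called 4, with Hoxc12 added to the 3. Without the filter on low values there were 5 DE genes of 38 (9.18% of all genes), and the added pair, Hoxc6 (edgeR adjusted p 0.0272) and Hoxc8 (adjusted p 0.0375), had no count in H3.3 KO. Hoxc6 had 6 and 13 counts in Daxx-/-, 5 and 9 in the DAXX-rescued line, 1 and 3 in the H3.3-rescued line, and 0 and 1 in the mutant line. For Hoxc8 there were 9 and 6 counts in Daxx-/-, 2 and 2 in the DAXX-rescued line, 1 and 1 in the H3.3-rescued line and none in the mutant line.

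The rescued lines allow the same contrast between backgrounds in other libraries. Between the H3.3-rescued line and the DAXX-rescued line no Hox gene was DE by edgeR (adjusted p-values 0.102 to 0.965) compared with 8.45% of all genes, and 1 had an unadjusted p under 0.05 (34.5% of all genes). This was Hoxc12, with a log2 fold change of -1.83 (interval -3.43 to -0.23, edgeR adjusted p 0.102). Hoxc12 had passed the filter on low values only through Daxx-line libraries, where it was high, so its value gives no support here. The values of the 3 genes DE between the KO lines were -0.27 for Hoxc13 (interval -0.99 to 0.46), -1.14 for Hoxc4 (-2.31 to 0.04) and -1.14 for Hoxc10 (-2.88 to 0.61). The interval of Hoxc13 lies within 2-fold here. Over all libraries, the 3 H3.3 lines differed from the 2 Daxx lines in 5 of 14 Hox genes (12.5% of all genes), and 8 had an unadjusted p under 0.05 (49.5% of all genes). Hoxc4 (-1.57, edgeR adjusted p 0.00556), Hoxc12 (-1.92, 0.00878), Hoxc10 (-1.99, 0.0118) and Hoxb9 (-1.09, 0.0214) were lower in the H3.3 lines, as were 6.20% of all genes. Hoxb4 was higher (1.78, 0.0417), as were 6.29% of all genes. Hoxc13 passed the adjusted p (0.00697) but not the 2-fold change (-0.92). Hoxc10 and Hoxc12 had passed the filter only through Daxx-line libraries, and Hoxb4 only through H3.3-line libraries. These are the lines in which each was high, so their calls give no support to the count of 5. This comparison contains the KO libraries and is not independent of the one above. Each background is 1 KO line and the lines made from it. P-values between backgrounds, here and above, therefore do not cover the spread between independent lines.

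Summed over the cluster, Hoxc RNA was 28.0 ± 8.27 CPM in Daxx-/-, 18.3 ± 6.6 in the DAXX-rescued line, 9.3 ± 3.73 in H3.3 KO, 11.9 ± 0.761 in the H3.3-rescued line and 8.94 ± 2.77 CPM in the mutant line (mean ± SD, n = 2). The Daxx lines ranged from 13.6 to 33.9 CPM and the H3.3 lines from 6.66 to 12.5 CPM, without overlap, a ratio of means of 2.3. Without Hoxc13 the ranges were 5.05 to 12.6 CPM and 1.34 to 3.65 CPM. All 9 Hoxc genes had the higher mean in the Daxx lines, as did 48.1% of all genes with a count. The corresponding numbers were 5 of 11 Hoxa genes, 4 of 10 Hoxb genes and 8 of 9 Hoxd genes, and the sums of these clusters overlapped between the backgrounds, with ratios of 0.8, 1.13 and 1.27. No overlap, with the Daxx lines higher, was found for Hoxb9, Hoxc4 and Hoxc12 among the 14 genes tested (9.82% of all genes tested). Hoxc12 passed the filter on low values only through Daxx-line libraries, where it was high, so it gives no support here. Over the 38 Hox genes with a count, tested or not, Hoxc6 and Hoxc8 were added (7.84% of all genes with a count). No Hox gene was lower in all 4 Daxx-line libraries than in all 6 H3.3-line libraries, as 13.2% of all genes tested were.

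**Figure D4:**
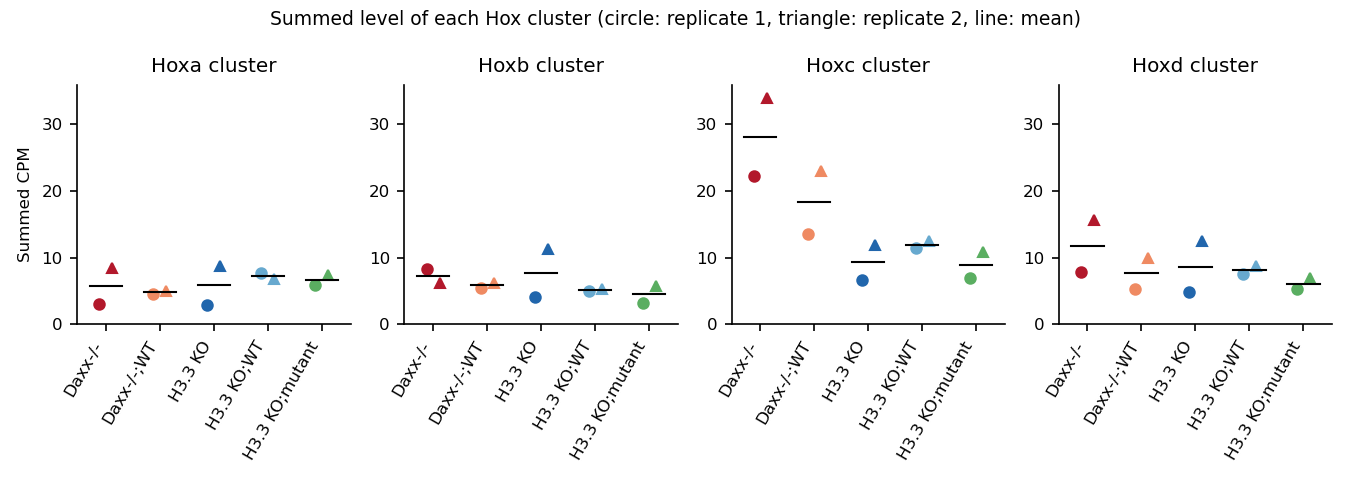
Summed CPM of the genes of each Hox cluster in each library, with circles for replicate 1, triangles for replicate 2 and a line at the mean of the 2. The Hoxc sums of the Daxx lines (13.6 to 33.9 CPM) lie above those of the H3.3 lines (6.66 to 12.5 CPM), and the other clusters overlap.

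Of the genes next to the Hoxc cluster, Calcoco1, Smug1, Cbx5 and Hnrnpa1 were not DE between the KO lines, where 11.7% of all genes tested were. Of 15 tested genes flanking any Hox cluster only Calcoco2, an autophagy receptor gene beside the Hoxb cluster, was DE (188 and 261 CPM in H3.3 KO, 69.1 and 52.1 CPM in Daxx-/-, log2 fold change 1.79, edgeR adjusted p 0.00257). Hnrnpa1, an RNA-binding protein gene, was the most abundant of them at 1580 to 2270 CPM. Fibroblast markers, whose cells express Hox genes, summed to 30.2 and 58.5 CPM in Daxx-/- and to 17.2 and 18.1 CPM in H3.3 KO, and 1 of the 4 that were tested, Thy1, was DE and lower in H3.3 KO (log2 fold change -2.11, edgeR adjusted p 0.0084). Thy1 gave 22.0 and 36.8 CPM of the Daxx-/- sums. Like Hoxc RNA, Thy1 did not overlap between the backgrounds over all libraries (11 to 36.8 CPM in the Daxx lines, 3.1 to 7.95 CPM in the H3.3 lines). Of all genes tested, 9.82% were likewise higher in every Daxx-line library. The other markers tested, Pdgfrb (1.23 to 9.96 CPM), Twist1 (1.03 to 6.68 CPM) and Col1a1 (0.467 to 4.57 CPM), overlapped. Between 2 and 5 of the 10 had no count in a given library, and Col3a1, Dcn and Lum did not exceed 0.156 CPM in any. The part of the Thy1 difference in the Hoxc difference was not tested. In the rescued lines the fibroblast sums overlapped (14.5 to 25.3 CPM in the DAXX-rescued line, 17.3 to 24.3 CPM in the H3.3-rescued line), but Thy1 did not (11 and 16.2 against 5.03 and 6.92 CPM), and Col1a1 was DE and higher in the H3.3-rescued line (log2 fold change 2.42, edgeR adjusted p 0.0181). The other marker lists were compared between H3.3 KO and Daxx-/-, where 11.7% of all genes tested were DE. In H3.3 KO, 1 of 9 pluripotency genes (Tbx3, higher) and 1 of 4 primed epiblast genes (Otx2, lower) were DE. For neural progenitors it was 1 of 4 (Ncam1, higher), for mesoderm 0 of 3 and for endoderm 0 of 5 tested. Lists this short cannot be set apart from the share of all genes. No gene of the 6 marker lists was DE in the 4 comparisons within a background (0.250% to 1.08% of all genes). In the DAXX-rescued line against Daxx-/-, the median log2 fold change was -1.45 for endoderm and -1.38 for fibroblast genes tested. It was -0.12 for primed epiblast, 0.15 for pluripotency, 0.51 for neural progenitor and 0.59 for mesoderm genes. Their part in the Hox values was not tested.

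Replicates of the same line also differed in Hox RNA. The sum over all 39 genes was 41.4 and 64.0 CPM in the replicates of Daxx-/-, 28.9 and 44.1 in the DAXX-rescued line, 18.4 and 44.5 in H3.3 KO, 31.7 and 33.1 in the H3.3-rescued line, and 21.3 and 30.9 CPM in the mutant line. In H3.3 KO, 31 of the 33 Hox genes with a count were higher in replicate 2, compared with 54.4% of all genes with a count in that line that were no more abundant on average than Hoxc13. The numbers were 30 of 36 in Daxx-/- (71.9% of such less abundant genes), 29 of 35 in the DAXX-rescued line (63.1%), 24 of 33 in the mutant line (70.8%) and 15 of 36 in the H3.3-rescued line (64.9%). The gap was widest in H3.3 KO, where the sum differed 2.42-fold, and it ran through the 4 clusters. Endoderm markers summed to 7.72 and 14.3 CPM in the replicates of H3.3 KO and to 7.94 and 23.4 CPM in those of Daxx-/-, with at most 1 of the 8 at 0 in any library, and their part in the difference was not tested. In the other lines they were at 5.51 and 8.49 CPM (DAXX-rescued), 9.5 and 9.63 CPM (H3.3-rescued) and 7.31 and 10.2 CPM (mutant). The other marker sums differed less between the H3.3 KO replicates. Fibroblast markers were at 17.2 and 18.1 CPM, mesoderm at 9.94 and 10.7, and neural progenitor at 127 and 128 CPM. Primed epiblast markers were at 70.9 and 72.7 CPM and pluripotency markers at 6850 and 7970 CPM. In Daxx-/- the fibroblast sums differed too (30.2 and 58.5 CPM), and their part was not tested either.

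Genes that act with or on Hox genes changed little within a background. Of 9 TALE cofactor genes, all tested, 1 was DE in the 4 comparisons of the study. Pbx3 was at 10.3 and 11 CPM in H3.3 KO and at 3.27 and 3.31 CPM in the H3.3-rescued line (log2 fold change -1.66, edgeR adjusted p 0.0493). Pknox1, the most abundant of this list, remained between 27.8 and 38.3 CPM. None of the tested ParaHox and Evx genes (1 of 8 tested), Hox-flanking genes (15 of 16 in the table), retinoic acid signalling genes (11 of 18) or trithorax and MLL complex genes (17 of 17 in the table) was DE in these 4 comparisons by edgeR. Of all genes tested, 0.250% to 1.08% were DE in them. Rarg, a retinoic acid receptor gene, was the most abundant of its list at 24.9 to 85.0 CPM, and Ash2l, a subunit gene of MLL complexes, of its list at 343 to 693 CPM.

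Genes of these lists were also DE between the KO lines, as were 11.7% of all genes tested. Cdx1, a caudal-type activator of Hox genes and the only ParaHox gene tested, was at 23.3 and 29.6 CPM in H3.3 KO and at 3.53 and 1.7 CPM in Daxx-/- (log2 fold change 3.23, SE 0.39, edgeR adjusted p 0.0016). In the rescued and mutant lines Cdx1 was at 16.7 to 27.1 CPM on the H3.3 background and at 1.92 and 1.98 CPM on the Daxx-/- background, so that the backgrounds did not overlap. Of all genes tested, 13.2% were likewise lower in every Daxx-line library. Mllt3, a gene of the transcription elongation machinery that MLL fusions recruit (4.09 and 4.78 CPM in H3.3 KO, 11.4 and 19.2 CPM in Daxx-/-, log2 fold change -1.86, edgeR adjusted p 0.00459), was the 1 trithorax and MLL complex gene DE between the KO lines, and was lower in H3.3 KO.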

How the data were processed

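PolyA RNA-Seq libraries of 5 mESC lines, 2 per line, were grouped by the line in their labels. The authors aligned reads to mm9 with Bowtie and ran RSEM with default parameters. Tool versions and the annotation are not given in the sources used here. The deposited values are named TPM but are expected counts (61.4% to 67.6% are whole numbers), and each library sums to between 15463625 and 21396585. The library kit does not mark strand.

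Expected counts were rounded. The 13201 genes that reached 1 CPM in 2 or more libraries were fitted together in edgeR (version 4.0.16, R 4.3.3) with median-of-ratios factors. The spread of each gene was estimated from all 10 libraries and moderated over genes (prior degrees of freedom 4.07). The common dispersion was 0.0522. P-values were adjusted by Benjamini-Hochberg over all genes tested. The standard error is the log2 fold change divided by the square root of F. DESeq2 (1.42.0) and limma (3.58.1) were alternatives, as were other scalings and filters, a replicate block and each library left out. CPM values use library totals. Counting intervals cover counting error only. P-values measure the spread between replicates, described as biological in the study.

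Every Hox gene was a member. The members and gene lists were chosen with earlier results of these data known. Tested members were described by library, and other lists by their DE genes and their most abundant gene. Exon lengths and overlaps came by symbol from a GRCm38 annotation and promoters from RefSeq (GRCm38.p6), and no coordinates were converted. The 20 noncoding Hox cluster RNAs listed had no entry under those symbols and were not analysed here. Results of 1 Hox gene and of some genes of the other lists are not reported here, although counts and sums include them.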

Additional observations from a re-analysis of the deposited data

How the results depend on the processing

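In the 4 comparisons within a background, the number of DE Hox genes was 0 under every alternative run, including each library left out in turn. Between the KO lines the number was 3. It became 5 without the filter on low values, 0 when the 4 libraries were fitted alone, 2 or 4 with limma (pseudocount 1 or 0.1), and ranged from 0 to 4 when each library was left out. Samples were not treated as paired, since the labels give no shared origin to a replicate number and not every pair of lines deviated together: deviations of same-numbered libraries correlated between -0.044 and 0.574, above 0.1 in 7 of 10 pairs of lines. With the replicate block there were 6 (adding Hoxb4, Hoxc12 and Hoxd4). Chosen after seeing the data, the rescued lines in place of the KO lines gave 0 and all H3.3 lines against all Daxx lines gave 5. Of these 5, and of the 6 with the replicate block, Hoxc10, Hoxc12 and Hoxb4 passed the filter only through the lines in which they were high. Hoxc13 was DE in 17 of 20 alternatives (edgeR, DESeq2 or limma adjusted p 0.000894 to 0.108), Hoxc10 in 14 of 18 (0.019 to 0.125) and Hoxc4 in 14 of 20 (0.00649 to 0.164). Of 1380 fold changes of single genes under alternatives, 13 lost and 7 gained a call, and no DE gene changed sign. The cause of these shifts was not tested. Counts limit the result: 25 of 39 Hox genes failed the filter on low values.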
